A study of Mus musculus with 20 samples.

Results

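A set of 67 genes, of 22361 measured in mouse liver, was higher with the antisense oligonucleotide SPC4061 than in every other group of the study. The genes were chosen from the deposited log2 intensities themselves. A member had a SPC4061 mean at least 0.5 above the saline mean and at least 0.4 above the mean of each of 3 other oligonucleotides, with all 4 SPC4061 arrays above all 16 others. On this scale a difference of 1 is a factor of 2 in intensity. The rule was met by 69 rows, and 2 of them, ENSMUSG00000038092 and ENSMUSG00000066071, were set aside by name as Hsd3b5 and Cyp4a12a. As background, these are enzyme genes that the mouse liver expresses mainly in males, under the pulses of growth hormone secretion. All mice here were female.

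The study measured total RNA from 20 livers of inbred female C57BL/6 mice with 1 array per mouse. Groups of 4 mice received saline, SPC4955, SPC4061 or SPC3847 at 10 mg/kg, or SPC3833 at 5 mg/kg, as 3 daily injections into a vein, with saline as the only control. The labels give 2 times for taking the livers, day 3 where the first dose is day 0, and 4 days after the first dose. They give neither the age of the mice, which weighed 20 ± 2 g (SD) at the start, nor the target of an oligonucleotide.

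An antisense oligonucleotide is a short synthetic strand that pairs with RNA of matching sequence and so changes how that RNA is used or how long it lasts. The liver takes up much of such a compound from the blood. Its RNA comes mostly from hepatocytes, with parts from endothelial cells, resident macrophages and stellate cells, and in such bulk RNA a change in the number of cells of a type cannot be told from a change in RNA per cell. The rows carry Ensembl gene identifiers that the files do not pair with symbols, and 0 of the 22361 were found in the gene table used here. The members are therefore given by identifier for a few and by their range for the rest. The functions of the members, their promoters, the markers of liver cell types and the levels of the targeted RNAs were not analysed here.

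The arrays had medians between 6.37 and 6.53, and the width of their distributions, given as the distance between first and the third quartile, lay between 2.70 and 3.21. The SPC4061 arrays were among the wider ones (3.02 to 3.20), beside 2.81 to 3.15 for saline. A wider distribution places bright genes higher, and its part in the choice of members was tested only through other scalings of the arrays, given below. Saline replicate 1, SPC4955 replicate 1 and SPC3847 replicate 4 lay farthest from their group means, with deviations over all rows of 0.270, 0.236 and 0.227 (SD), against 0.101 to 0.169 for the other 17 arrays. Without these 3 arrays the same rule gave 70 genes, of which 55 were members of the set chosen on all arrays. Part of the membership thus depended on these 3 arrays.

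The rule removed most of the rows that were higher with SPC4061 than with saline. Of all rows, 410 (1.83%) had a SPC4061 mean at least 0.5 above saline. Of these, 299 were less than 0.4 above at least 1 other oligonucleotide: 215 fell short against SPC4955, 193 against SPC3847 and 169 against SPC3833, with some counted more than once. A row could fall short with a mean only slightly above saline in the other group, so these counts are not counts of shared rises. The remaining 111 lost 42 whose arrays overlapped those of other groups. All 4 SPC4061 arrays lay above all 16 others in 1.92% of all rows. The same rule turned to the other compounds gave 28 genes raised with SPC4955, 7 with SPC3833 and 2 with SPC3847. Turned to falls, it gave 65 genes with SPC4061, 110 with SPC4955, 136 with SPC3833 and 26 with SPC3847. SPC4061 thus had the longest list of such rises among the 4 compounds, whose doses were not all the same, while its list of falls was shorter than those of SPC3833 and SPC4955.

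The difference between SPC4061 and saline was moderate for most members. It chose the members and is described with no test. The median rise was 0.74, a factor of 1.67, with quartiles of 0.66 and 0.87. A rise of at least 1 was seen in 15 members, a rise from 0.75 to 1 in 17 and a smaller one in 35. In only 1 member did it reach 2. The distance from the SPC4061 mean to the next highest group mean was 0.55 in the median and at least 1 in 9 members. The lowest SPC4061 array lay above the highest other array by 0.22 in the median, by at least 0.5 in 6 members and by less than 0.1 in 13. Members close to the thresholds differed little from genes just beyond them. The 3 smallest rises among members were 0.51, 0.51 and 0.52, and the 3 largest among the 27 rows that failed this step alone were 0.495, 0.488 and 0.486. Against the nearest other oligonucleotide the smallest distances among members were 0.41, 0.41 and 0.41, and the largest among the 61 rows that failed this step alone were 0.3997, 0.397 and 0.392.

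ENSMUSG00000078597 stood farthest from the other groups. With SPC4061 its log2 intensities in replicates 1 to 4 were 5.16, 5.56, 7.28 and 6.64. With saline they were 3.18, 3.77, 3.42 and 3.43. The lowest SPC4061 liver was thus well above the highest saline liver, and the SPC4061 livers differed among themselves more than those of any other group (SD 0.97, n = 4, against 0.065 to 0.26). The values were 3.31, 3.29, 3.64 and 3.83 with SPC4955 and 3.57, 3.43, 3.64 and 3.78 with SPC3833. With SPC3847 they were 3.27, 3.33, 3.23 and 3.38. These 3 groups overlapped saline or lay within its range. The rise with SPC4061 was 2.71, a factor of 6.55 in intensity. In saline arrays the gene ranked between the percentiles 3.39 and 8.26 of all rows, and with SPC4061 between 26.6 and 62.5. At such low saline values an intensity may hold mostly background, so the factor is one of deposited values and not of RNA. The differences from saline with the other compounds were 0.07, 0.15 and -0.14 for SPC4955, SPC3833 and SPC3847 (limma adjusted p = 0.949, 0.818 and 0.902).

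ENSMUSG00000034634 ranked second and was measured in the middle of the intensity range. With SPC4061 its values were 8.63, 7.91, 9.23 and 8.37, and with saline 6.43, 6.74, 7.01 and 7.10. Replicate 3 was the highest SPC4061 liver for this gene too, and replicate 2 the lowest. The values were 7.00, 6.75, 7.59 and 6.92 with SPC4955, 6.62, 6.92, 6.78 and 6.85 with SPC3833, and 6.86, 6.87, 6.73 and 6.79 with SPC3847. SPC4955 replicate 3 was the nearest array of another group, and the others overlapped saline. The mean rose from 6.82 ± 0.30 with saline to 8.54 ± 0.55 with SPC4061 (SD, n = 4 each), a rise of 1.71 or a factor of 3.28. The differences from saline with the other compounds were 0.24, -0.03 and -0.01 in the same order as above (limma adjusted p = 0.644, 0.957 and 0.992). This gene and ENSMUSG00000078597 were named for their distance to the next highest group. Low values with the other compounds were thus part of the choice, and these p-values are no independent support.

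**Figure D1:**
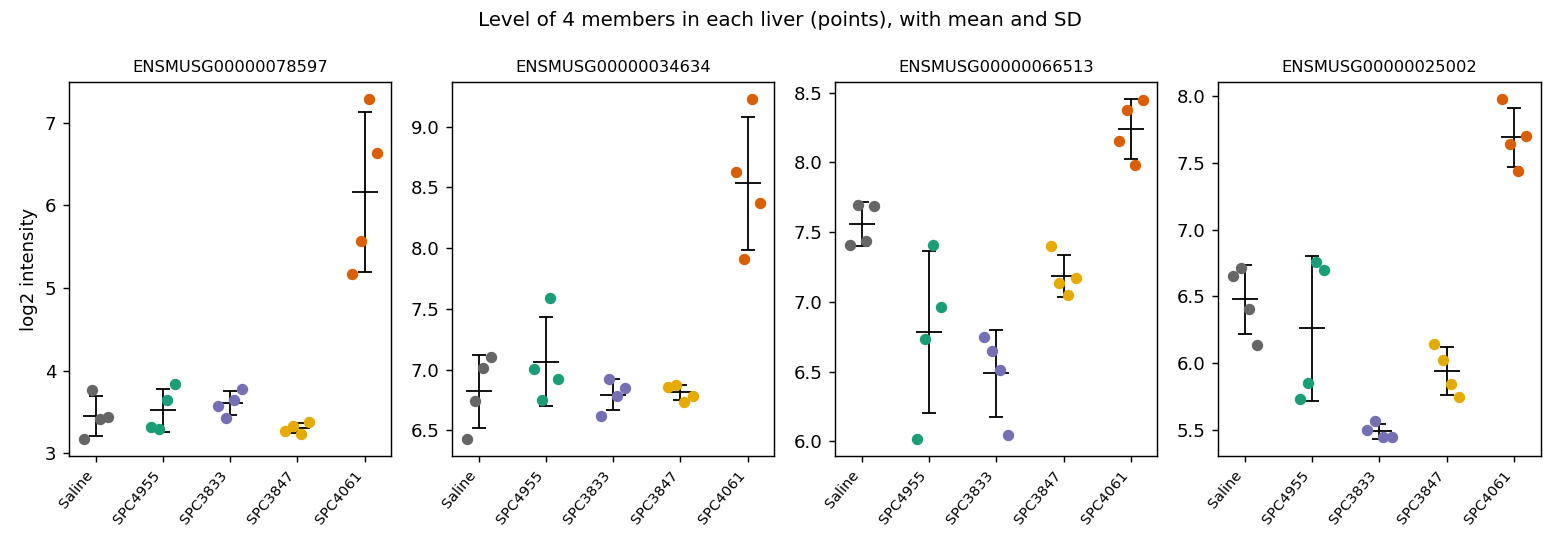
Log2 intensity (vertical axes, each with its own range) of 4 members in the 20 livers, by treatment group; points are livers and the black marks are the mean and SD of 4. The SPC4061 livers lie above all others for each gene. For ENSMUSG00000066513 and ENSMUSG00000025002 (2 right panels) the SPC3833 livers also lie below all saline livers. For ENSMUSG00000066513 the SPC3847 livers do so too, by a narrow margin.

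The members covered the range of levels, with few at the dim end. By their mean percentile among all rows of the saline arrays, 4 of the 67 members (5.97%) lay at or below the percentile 25, 21 between 25 and 50, 25 between 50 and 75, and 17 (25.4%) above 75. The median rise was 1.28 among the 4 dim members and 0.74, 0.80 and 0.68 in the following ranges. Of the 15 members with a rise of at least 1, 3 were among the dim ones and 2 among the brightest 17. Saline means ran from 3.45 to 10.9 and SPC4061 means from 5.37 to 12.3.

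The rise was present in each of the 4 SPC4061 livers at a like size, as the rule required in part. The median over the members, taken as the difference from the saline mean, was 0.72, 0.76, 0.69 and 0.83 in SPC4061 replicates 1 to 4. Saline replicates gave 0.01, 0.05, -0.02 and -0.04. Replicate 4 was the highest of the SPC4061 livers in 25 members and the lowest in 5, whereas replicate 3 was the highest in 19 and the lowest in 25. The order of the livers thus differed between members. The median SD within the SPC4061 group was 0.146 over the members and 0.102 over all rows. In the saline group these were 0.145 and 0.129.

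The livers given SPC4955 and SPC3847 varied more in these genes than the saline livers (SD of the member median 0.162 and 0.0981, against 0.0388, n = 4 each), and those given SPC3833 varied less (0.0285). The median SD over all rows, another measure, was 0.152 with SPC3847, 0.129 with saline, 0.120 with SPC4955 and 0.0954 with SPC3833. The order of SPC3847, saline and SPC3833 was thus not particular to these genes. The member median was -0.09, -0.07, 0.09 and 0.26 in SPC4955 replicates 1 to 4, and 0.18, 0.03, 0.12 and -0.04 in SPC3847 replicates 1 to 4. It stayed between -0.005 and 0.06 with SPC3833. SPC4955 replicate 4 came nearest to the SPC4061 livers: it was the highest of the 16 other arrays in 14 members and above the saline mean in 58. SPC3847 replicate 1 was the highest of the 16 in 11 members. These arrays were also wide, with quartile ranges of 3.21 (the widest of all) and 3.16, while SPC3847 replicate 4, the lowest of the 16 in 12 members, was the narrowest at 2.70. SPC4955 replicate 1, the lowest in 16 members, had a range of 2.99. Saline replicate 1 was nearly as wide as SPC3847 replicate 1, at 3.15, with a member median of 0.01. It was the highest of the 16 in 3 members and the lowest in 9. After quantile normalization, which gives all arrays the same distribution, the member median was 0.21 in SPC4955 replicate 4 and 0.15 in SPC3847 replicate 1, and between 0.62 and 0.77 in the SPC4061 livers. The members were chosen on the values as deposited, and the cause of the differences between these livers was not tested. For the counts of members in single arrays in this paragraph, no share of all rows was taken.

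**Figure D2:**
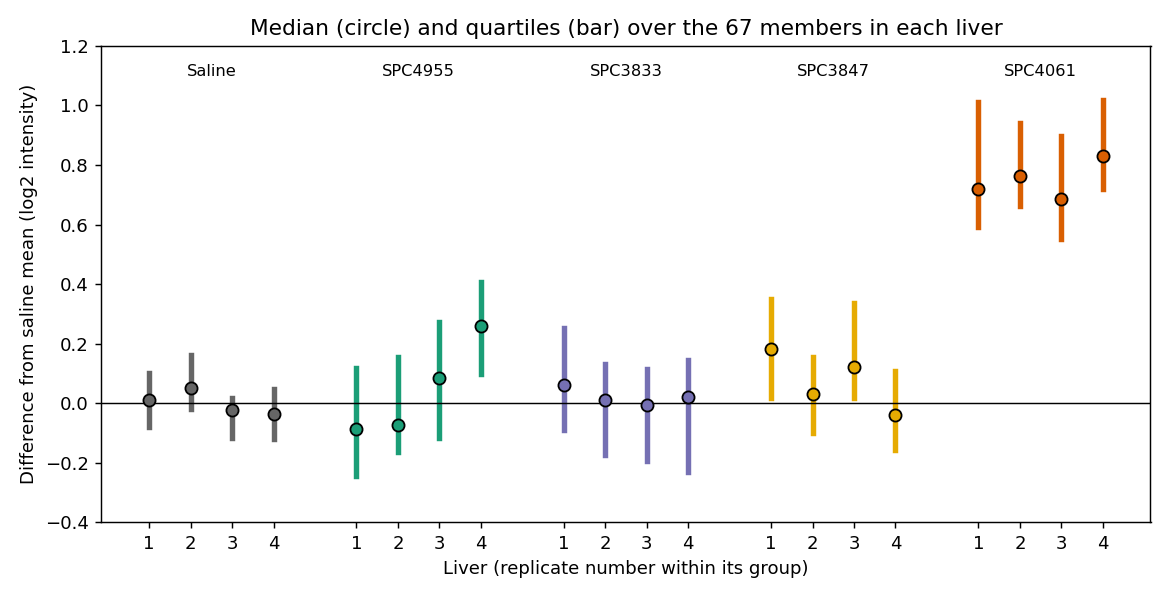
Difference from the saline mean (log2 intensity, vertical axis) over the 67 members in each of the 20 livers (horizontal axis, grouped by treatment); circles are medians over members and bars run from the first to the third quartile. The SPC4061 medians lie between 0.69 and 0.83, and the highest of the other 16 is 0.26 in SPC4955 replicate 4.

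The rule was also applied with 1 SPC4061 array left out, and that array was then read. The choice had not used that array, but it had used the 16 others against which the array was read. Replicate 1 lay above all 16 other arrays in 72 of the 86 genes chosen on the other 3 (83.7%), against 6.05% of all rows. For replicate 2 the count was 74 of 79 (93.7%, against 8.19%), for replicate 3 it was 74 of 96 (77.1%, against 10.7%) and for replicate 4 it was 63 of 67 (94.0%, against 8.30%). The left-out array was above the saline mean in every gene so chosen, with lowest differences of 0.0017, 0.099, 0.043 and 0.28 for replicates 1 to 4. The saline arrays had to lie low in these genes and the share of all rows was not counted, so this is no support. The median difference of the left-out array from saline was 0.60, 0.73, 0.61 and 0.78 for replicates 1 to 4. In the 3 arrays that chose the genes it was 0.71, 0.73, 0.76 and 0.74. For replicates 1 and 3 the rise was thus smaller in the array not used, and for replicates 2 and 4 it was as large. The 16 other arrays took part in each choice and had to lie low for these genes, which was not required of all rows. The percentages thus describe the left-out array and are no test.

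**Figure D3:**
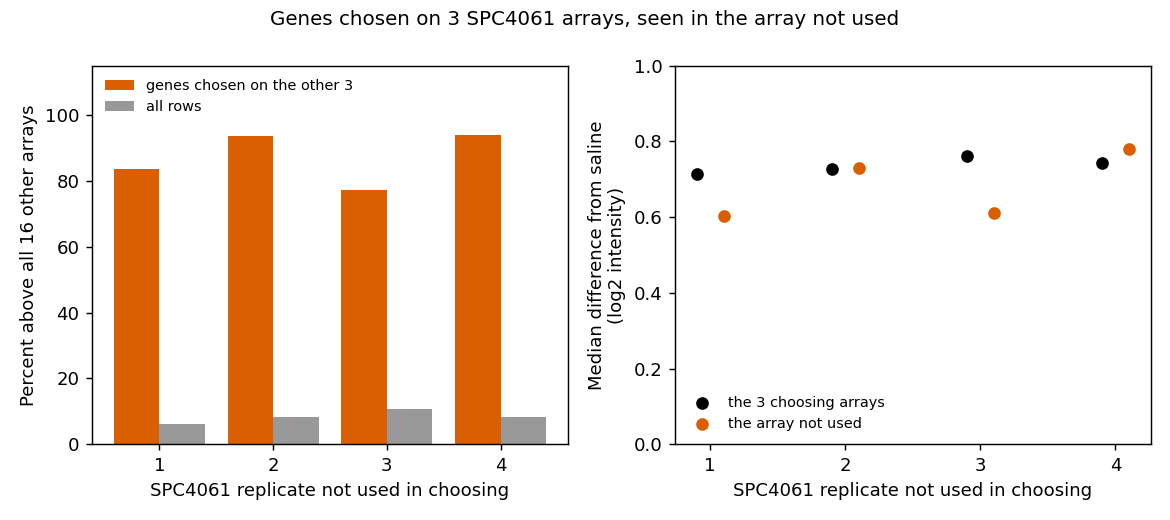
Genes chosen on 3 SPC4061 arrays and read in the fourth, by the replicate not used (horizontal axes). Left, the percent of genes in which that array lies above all 16 arrays of other groups, from 77.1% to 94.0% of the genes chosen and from 6.05% to 10.7% of all rows; right, the median difference from the saline mean (log2 intensity) in the choosing arrays and in the array not used, which is lower for replicates 1 and 3.

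The members were also compared between each other compound and saline. The rule set no distance between these groups, but it used the values of both and limited how far a mean with another compound could lie above saline, to 0.34 in the median member and to 0.11 in the most restricted one. Rises were thereby limited by the choice, and the 3 contrasts share the same saline arrays. Few members passed the threshold, a limma adjusted p below 0.05 over all 22361 rows. With SPC4955, 2 of 67 members (2.99%) rose and 1 (1.49%) fell, where 4.22% of all rows rose and 2.37% fell. With SPC3833, 2 rose and 2 fell, where 3.71% and 3.35% of all rows did. With SPC3847, 2 rose and 0 fell, where 1.84% and 1.49% did. At an unadjusted limma p below 0.05, 14 members were higher and 4 lower with SPC4955 (20.9% and 5.97%, against 12.6% and 5.42% of all rows). With SPC3833 these were 10 and 9 (14.9% and 13.4%, against 12.1% and 7.29%), and with SPC3847 11 and 1 (16.4% and 1.49%, against 9% and 5.72%). The counts past the adjusted threshold are too small, and too bound by the rule, to be a result about the members as a set. In all, 59 members passed with none of the other compounds, 6 rose with 1 of them and 2 fell with at least 1. The share of all rows that passed with none was not counted, so the 59 are no result about the members. Leaving out single arrays changed the small counts of members called. The members higher with SPC4955 numbered 5 without SPC4955 replicate 1 (7.46%, against 4.56% of all rows in that fit), and those higher with SPC3847 numbered 5 without SPC3847 replicate 4 (7.46%, against 2.54%). Without the 3 arrays farthest from their groups, the members higher numbered 4 with SPC4955 (5.97%, against 6.02% of all rows), 3 with SPC3833 (4.48%, against 4.37%) and 8 with SPC3847 (11.9%, against 3.50%).

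The median difference from saline over the members was 0.07 with SPC4955, 0.06 with SPC3833 and 0.07 with SPC3847, beside 0.01, 0.05 and 0.02 over all rows. Means above saline were seen in 40, 38 and 45 of the 67 members in the same order. The share of all rows above saline was not counted. The medians over all rows were themselves positive, so these counts are no result about the members. The next highest group after SPC4061 was SPC3847 in 24 members, SPC4955 in 17, SPC3833 in 15 and saline in 11. The rule used all these means and the same shares of all rows were not counted, so this order is no result about the members either.

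Of the 6 members that rose with a second compound, by less than with SPC4061 as the rule required, the one with the largest rise, a gene at 6.44 with saline, rose by 0.97 ± 0.17 with SPC4955 (SE; limma adjusted p = 0.000961) and was 1.40 above saline with SPC4061. The brightest member, at 10.9 with saline, rose by 0.62 ± 0.13 with SPC3847 (SE; limma adjusted p = 0.0106) and was 1.35 above saline with SPC4061. The other 4 rose by between 0.31 and 0.56, with limma adjusted p between 0.0209 and 0.0470.

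ENSMUSG00000066513 and ENSMUSG00000025002 fell with other compounds while they were raised with SPC4061, and they were singled out after their values had been seen. ENSMUSG00000066513 had 7.41, 7.70, 7.44 and 7.69 with saline and 6.75, 6.65, 6.51 and 6.04 with SPC3833. With SPC4955 the values were 6.02, 6.73, 7.41 and 6.97. With SPC4061 they were 8.15, 8.38, 7.98 and 8.45, and with SPC3847 7.40, 7.14, 7.05 and 7.17. The SPC3833 livers did not overlap the saline livers, and SPC4955 replicate 3 reached the saline range. The SPC3847 livers also lay below all saline livers, though narrowly, with a highest value of 7.401 against a lowest of 7.405. The gene fell by 1.07 with SPC3833 (SE 0.21, limma adjusted p = 0.00265) and by 0.78 with SPC4955 (SE 0.21, limma adjusted p = 0.0280). Without SPC4955 replicate 1 the second of these differences was -0.52 and did not pass (limma adjusted p = 0.0732), and without the 3 arrays farthest from their groups it was -0.57 (0.0601). In a fit of only the 8 arrays compared it kept its size, -0.78, and did not pass (0.137). Without Saline replicate 2, Saline replicate 4 or SPC4955 replicate 2 it was -0.73, -0.73 and -0.76, about as large, and did not pass either (0.0774, 0.0852 and 0.0729). The difference with SPC3847 was -0.37 (limma adjusted p = 0.460).

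ENSMUSG00000025002 had 6.65, 6.71, 6.41 and 6.13 with saline and 5.50, 5.56, 5.44 and 5.45 with SPC3833, groups that did not overlap. With SPC4061 its values were 7.98, 7.64, 7.44 and 7.70. It fell by 0.99 with SPC3833 (SE 0.19, limma adjusted p = 0.00273). The values were 5.73, 5.85, 6.76 and 6.70 with SPC4955, of which 2 lay below and 2 near the top of the saline range or above it. They were 6.14, 6.02, 5.84 and 5.74 with SPC3847. The differences from saline were -0.22 with SPC4955 and -0.54 with SPC3847 (limma adjusted p = 0.653 and 0.148). The falls of both genes with SPC3833 passed under every alternative that was run, with limma adjusted p up to 0.0142 and 0.0130. Both genes were picked for the largest falls that passed, and the alternatives used largely the same arrays, so this is no independent support.

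**Figure D4:**
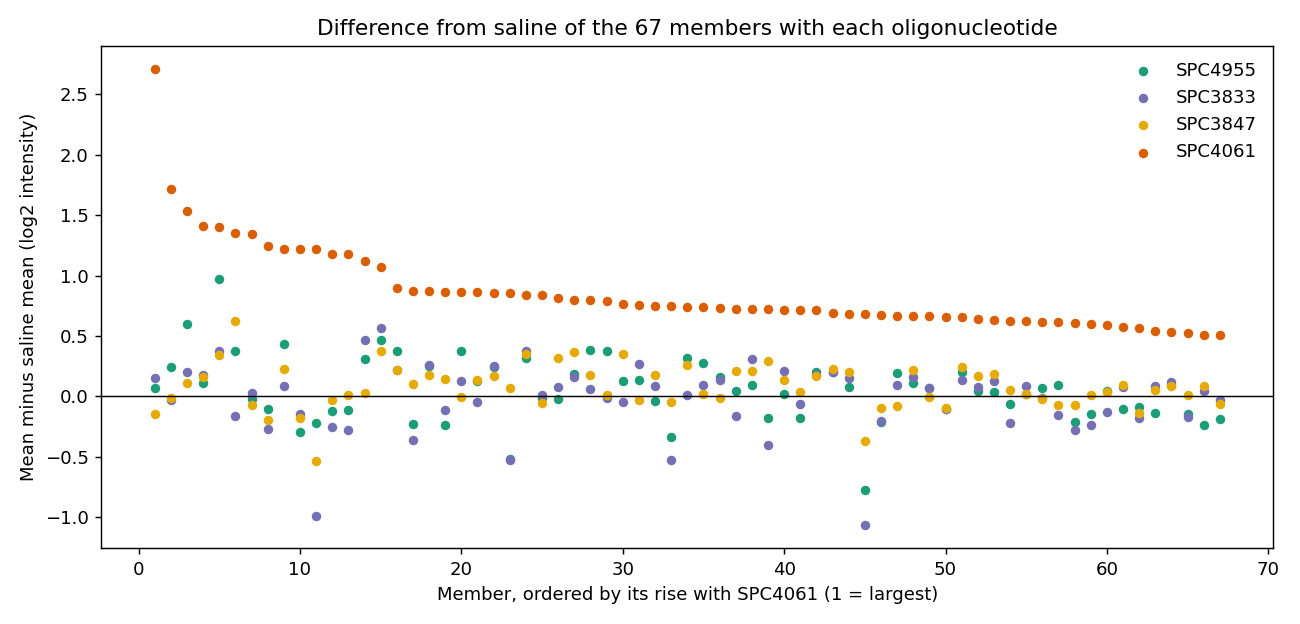
Mean difference from saline (log2 intensity, vertical axis) of the 67 members with each of the 4 oligonucleotides; members are ordered along the horizontal axis by their rise with SPC4061. The SPC4061 points run from 2.71 down to 0.51, and the points of the other compounds run from -1.07 to 0.97.

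The membership depended on how the arrays were scaled. With every array centred on the same median, 100 genes met the rule, among them 65 of the 67. After quantile normalization 56 genes met it, among them 49 of the 67. The median rise of the 67 was 0.78 and 0.73 in these scalings, beside 0.74 as deposited.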

How the data were processed

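Total RNA of 20 livers was labelled with the whole-transcript sense assay of Affymetrix, per the labels. The authors deposited log2 intensities, already summarised to 1 value per Ensembl gene and array; the affy package is named in the submitters' processing notes. Not given in the sources used here were the background correction, the normalization, the assignment of probes to genes and the build. The values were used as deposited. The members and all lists were chosen with earlier results of these data known. The members came from the rule with Python 3.11.15. A linear model with the 5 group means was fitted to all 22361 rows and 20 arrays (limma 3.58.1 in R 4.3.3, 15 residual degrees of freedom, p-values adjusted by Benjamini-Hochberg over all rows), after tests on simulated data. The number of arrays limits the precision. Genes were to be named by their distance to the next group; without symbols the rule kept the first 2. The planned gene lists, 28 in number, and promoter motifs could not be matched to identifiers and were not tested. The labels call the livers biological replicates.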

Additional observations from a re-analysis of the deposited data

How the results depend on the processing

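Arrays, not depth, limit these results, and signal over background was not analysed here. The 67 members became 32 with 0.75 required against saline, 105 with 0.3 against the other oligonucleotides, 109 with overlapping arrays allowed, and 62 to 96 with 1 array left out (96 without SPC4061 replicate 3). With 0.4 against saline they were 84. The median rise lay between 0.72 and 0.80, and the share of left-out SPC4061 arrays above all others was 86.3% in all, 81.7% after median centring and 79.9% after quantile normalization, both chosen after seeing the data.

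Counts of members called with the other compounds were small and moved with the settings. The members higher with SPC4955 (2) were 1 after median centring, after quantile normalization, when only the 8 arrays compared were fitted and with the replicate number as a block, and 1 to 5 with an array left out (1 without Saline replicate 1, Saline replicate 4 or SPC4955 replicate 4). Those lower (1) were 2 with dim rows left out, 0 with the 8 arrays, 3 with array weights and 0 without the 3 farthest arrays, and 0 to 3 with 1 array left out (0 without Saline replicates 2 or 4 or SPC4955 replicates 1 or 2, 3 without SPC4955 replicate 4). Those higher with SPC3833 (2) were 1 after either scaling, 4 with array weights and 0 to 3 with an array left out (0 without Saline replicates 1 or 4 or SPC3833 replicate 2, 1 without Saline replicate 3 or SPC3833 replicates 1, 3 or 4). Those lower (2) were 4 with dim rows left out and with the 8 arrays, 5 with array weights, and 2 to 3 with an array left out. Those higher with SPC3847 (2) were 1 after median centring, 0 with the 8 arrays, 6 with array weights, 8 without the 3 farthest arrays, and 1 to 5 with an array left out (1 without any 1 Saline array or SPC3847 replicates 1, 2 or 3). The count lower with SPC3847 was 0 in all of them (limma). Over these settings the share of all rows called moved too, from 1.52% to 6.29% for rises and 1.42% to 3.30% for falls with SPC4955, 1.54% to 5.89% and 2.40% to 4.79% with SPC3833, and 0.0224% to 3.55% and 0.157% to 2.28% with SPC3847, so a moved count need not be about the members. The causes were not tested.

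Deviations of same-numbered arrays correlated over 0.1 in 9 of 40 pairs (-0.50 to 0.52). Other pairs were not compared, so pairing of mice was not tested. With the replicate number as a block, 1 member was higher with SPC3847 (1.49%, against 1.31% of all rows). The counts with SPC3833 were 2 higher and 2 lower (2.99% each, against 3.08% and 3.18%).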
